A study of Mus musculus with 12 samples.

Results

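The genes described here are the potassium, HCN, sodium and calcium channel genes of the mouse, followed in sorted cortical astrocytes from sham surgery to day 60 after stroke. They are the rows of the deposited count table whose symbol starts with Kcn, Hcn and a number, Scn and a number, or Cacn. The table lists 15774 genes, of which 126 matched. From these, 3 inward rectifiers of glia and vessels (Kcnj8, Kcnj10 and Kcnj16) were set aside, which left 123. The label of voltage-gated channels covers only part of them. The set also holds inward rectifiers, K2P leak channels, the calcium-gated channel Kcnn4, the sodium-sensing Scn7a, and auxiliary subunits and glutamate receptor partners that form no pore of their own. In 12 classes by role it holds 37 voltage-gated potassium (Kv) pore subunits, 12 Kv auxiliary subunits, 11 calcium- or sodium-activated potassium subunits, 10 inward rectifiers, 11 K2P channels, 4 HCN channels, 8 sodium channel alpha and 4 beta subunits, and 10 alpha1, 4 alpha2delta, 4 beta and 8 gamma calcium channel subunits. All 123 are protein-coding in GENCODE M21, and all 123 passed the filter on low counts.

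RNA came from wild-type C57BL/6J mice, from cells of the cerebral cortex labelled as astrocytes and isolated by fluorescence-activated sorting. Stroke was made by permanent ligation of the distal middle cerebral artery and a 7 min closure of both common carotid arteries, and sham animals received only a lesion of the skull surface. The 6 groups were sham and days 1, 3, 7, 21 and 60 after the operation, with 2 libraries each, and all animals had the same genotype. The labels give no age, sex or sort marker, and do not say whether a library was 1 animal or a pool, so p-values measure only the spread between these libraries, which may be technical.

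Voltage-gated channels open when the membrane potential changes, and in neurons sodium channels carry the upstroke of the action potential, Kv channels end it, and calcium channels couple it to transmitter release and transcription. Inward rectifiers and K2P channels set the resting potential, and astrocytes are known for a large resting potassium conductance that clears potassium released by neurons. Channels gated by calcium, such as that encoded by Kcnn4, are known from immune cells, endothelium and fibroblasts, where they keep the membrane hyperpolarised during calcium entry.

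Of the 123 genes, 3 were called higher than sham at all 5 times, namely Kcnn4, Kcnj15 and Kcnk5, and 8.09% of all genes tested were so called. Their promoters are shown because these are the channel genes with the longest-lasting rise. Each line gives the 250 bases before the RefSeq transcription start (build GRCm38.p6), 5′ to 3′ on the gene's strand, with CG dinucleotides, the sites of DNA methylation, in capitals. They lie at chr7:24370013-24370262 (plus strand), chr16:95257308-95257557 (plus strand) and chr14:20181783-20182032 (minus strand).
Kcnn4: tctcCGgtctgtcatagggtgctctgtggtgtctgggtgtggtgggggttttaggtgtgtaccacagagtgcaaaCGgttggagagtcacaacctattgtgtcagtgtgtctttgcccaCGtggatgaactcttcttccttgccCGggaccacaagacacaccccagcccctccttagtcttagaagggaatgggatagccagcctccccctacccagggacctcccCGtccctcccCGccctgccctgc
Kcnj15: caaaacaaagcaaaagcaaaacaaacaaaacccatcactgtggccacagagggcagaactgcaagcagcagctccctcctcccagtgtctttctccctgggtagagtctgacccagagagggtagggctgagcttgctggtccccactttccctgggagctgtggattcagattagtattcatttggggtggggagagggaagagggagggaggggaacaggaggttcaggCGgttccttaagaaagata
Kcnk5: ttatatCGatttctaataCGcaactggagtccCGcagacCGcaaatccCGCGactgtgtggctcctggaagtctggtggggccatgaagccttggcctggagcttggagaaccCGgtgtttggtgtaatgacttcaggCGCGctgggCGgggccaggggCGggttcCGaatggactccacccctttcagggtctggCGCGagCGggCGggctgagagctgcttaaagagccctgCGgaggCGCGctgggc
The letters differed in base composition. The Kcnk5 window held 19 CG dinucleotides, the Kcnn4 window 6 and the Kcnj15 window 1, against a median of 6 in 32851 promoters of the same length. GC content was 62.8%, 58.8% and 53.2%. Matches were found for 90 of the 123 genes, with 121 promoters, whose median was 8 CG dinucleotides. Both strands were searched for TGANTCA, the AP-1 motif, and TTCNNNGAA, the STAT motif, which may overlap. None of the 3 windows printed here held a match. Over all promoters 6.75% and 7.02% held them, and over those of the channel genes 4.13% and 9.09%. Among 15 promoters of 11 channel genes called higher at 1 or more times, Kcne3 held the AP-1 letters and Cacna1c the STAT letters.

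Levels are CPM, counts per 1000000 counts of a library total scaled by its TMM factor, and fold changes are log2 values ± standard error (SE). The adjusted p comes from edgeR's quasi-likelihood test over 15635 genes, and a gene was called at an adjusted p under 0.05. Library totals were 13006008 to 16575045 counts for replicate 1 and 97056596 to 156128922 for replicate 2. The marker lists moved strongly between groups, as the plot of summed levels per library shows. All 13 astrocyte markers were at 1 CPM or more in every group, and their summed level was 8026 to 8953 CPM in sham and 1592 to 2190 CPM at day 7. The 15 neuron markers summed to 9479 and 12382 CPM in sham and to 259 to 1819 CPM afterwards. The 11 fibroblast markers summed to 124 and 191 CPM in sham and to 94608 and 295830 CPM at day 7. In these 3 lists and those for microglia, endothelium, pericytes and oligodendrocytes, no marker was at 0 in a whole group, while Cd3e, Cd3g and Cd5l of the 11 leukocyte markers were at 0 in sham, Cd3e also at day 1 and Cd3g at day 7.

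**Figure D1:**
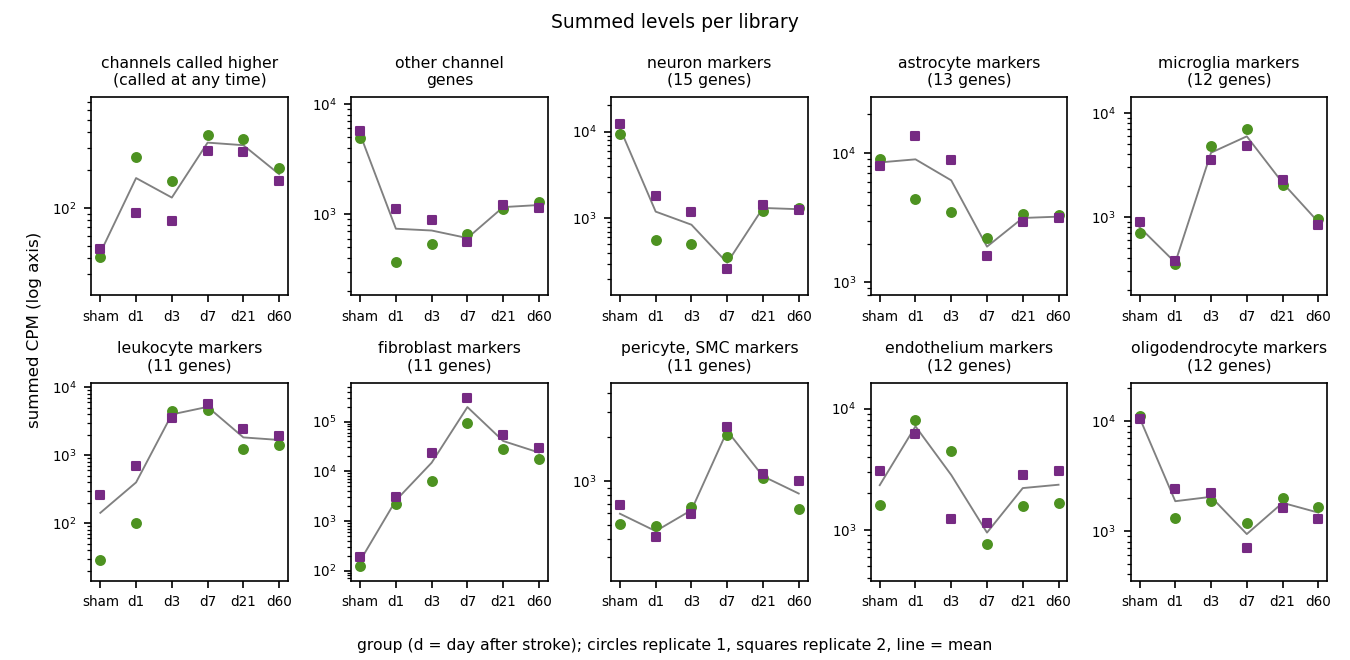
Summed CPM per library on log axes for the 15 channel genes called higher at any time, the other 108 channel genes and 8 marker lists, by group (circles replicate 1, squares replicate 2, line the mean of the 2). The 108 other channel genes sum to a mean of 5318 CPM in sham and 606 CPM at day 7, and neuron markers are also highest in sham. The split into 15 and 108 genes was made from these same libraries.

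Channel genes as a set were far lower in every group after stroke than in sham. Their transcripts made up 0.498% and 0.533% of all counts in the sham libraries and 0.0579% to 0.166% in the other 10. Summed levels averaged 5362 CPM in sham and 910, 831, 938, 1475 and 1396 CPM at days 1, 3, 7, 21 and 60. For 94 of the 123 genes sham had the highest group mean. Fewer cells of a type and less RNA per cell cannot be told apart in such bulk samples.

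At day 1, 66 channel genes (53.7%) were called lower and 7 (5.69%) higher, where 13.9% and 16.7% of all genes tested were called lower and higher. Day 3 gave 60 lower (48.8%, against 14.2% of all genes) and 5 higher (4.07%, against 18%). Day 7 gave the most in both directions, with 72 lower (58.5%, against 19.8%) and 9 higher (7.32%, against 23.2%). By day 21 there were 53 lower (43.1%, against 15.4%) and 7 higher (5.69%, against 17.8%). At day 60 there were 57 lower (46.3%, against 14.8%) and 7 higher (5.69%, against 16.8%). So at each time the share called lower was above that of all genes and the share called higher below it. The median log2 fold change of the 123 genes was -2.64, -2.65, -3.34, -2.27 and -2.22, against 0.06, 0.16, 0.13, 0.07 and 0.01 for all genes tested. With genes at 0 counts placed at the bound that 3 counts per library give, the channel medians were -2.63, -2.63, -3.25, -2.27 and -2.22. Each of the 35 calls higher and 308 calls lower had the same direction within replicate 1 and within replicate 2. The calls were made on these same libraries, so this agreement gives them no separate support. Both libraries of a group lay below both sham libraries for 94, 97, 98, 96 and 95 channel genes at the 5 times, against 33.2%, 31.2%, 36%, 35.4% and 34.3% of all genes. Both lay above for 9, 9, 15, 15 and 10, against 33.8%, 35%, 40.4%, 38.4% and 33.1%. The 5 comparisons share the sham libraries.

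These counts depended on single libraries, with 2 per group. In each refit given here, fewer of all genes tested were called in the same direction too. At day 1, leaving out sham replicate 1 gave 36 lower and 3 higher, leaving out sham replicate 2 gave 33 and 4, and leaving out day 1 replicate 1 gave 21 and 3. At day 3 the lower count was 29 without day 3 replicate 1, and the higher count was 3 without either sham library, day 3 replicate 1 or either day 21 library. At day 7 the lower count was 47 without day 7 replicate 2, and the higher count was 4 without sham replicate 1 and 5 without sham replicate 2 or day 7 replicate 1. At day 21 the lower count was 21 and 28 without sham replicates 1 and 2 and 15 and 11 without day 21 replicates 1 and 2. The higher count there was 4 without sham replicate 1 or either day 21 library. At day 60 the lower count was 20 without either sham library and 31 and 19 without day 60 replicates 1 and 2, and the higher count was 3 without either sham library and 4 without either day 60 library. In each of these refits genes called lower outnumbered those called higher.

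**Figure D2:**
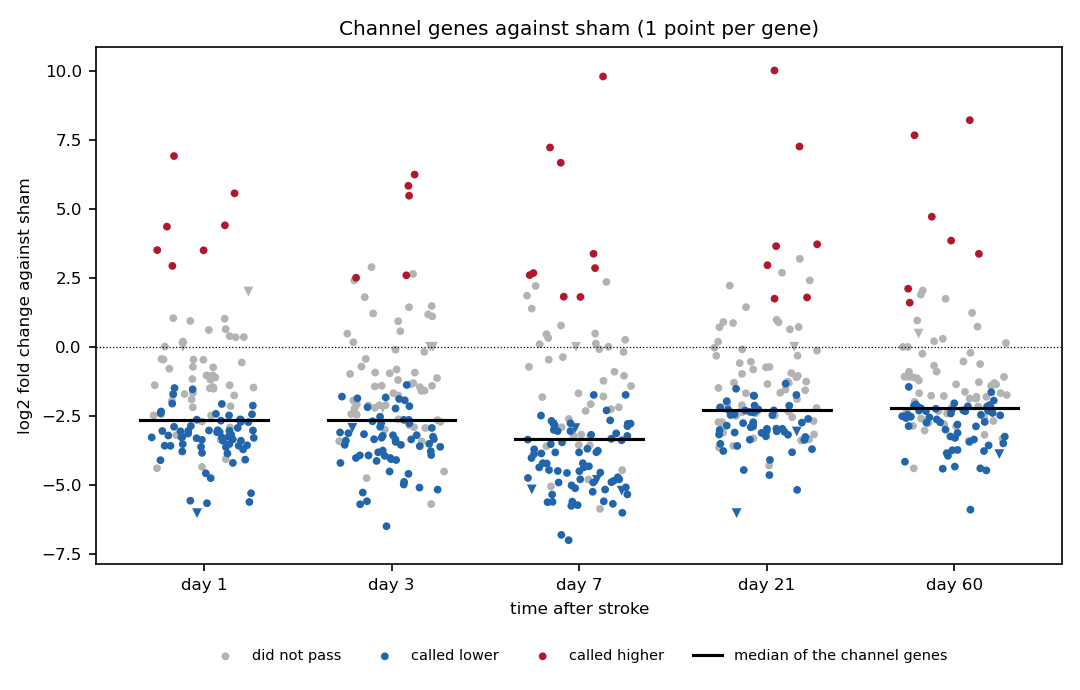
Log2 fold change against sham of each of the 123 channel genes at each time, 1 point per gene spread sideways for legibility, with called genes in colour and the median as a bar. Triangles stand at the bound for genes at 0 counts in a whole group. Medians lie between -3.34 and -2.22, and 5 to 9 genes per time are called higher.

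Over the 5 times, 15 channel genes were called higher at 1 or more times (30.9% of all genes were), 92 lower at 1 or more (26.3% of all genes), 2 of them in both directions (0.761%) and 18 at no time (43.6%). All 5 times were called lower for 36 genes (7% of all genes). The genes called higher had low levels in sham, with a median of 3.11 CPM and 13 of 15 under 5 CPM, against a median of 19.6 CPM for the 90 called only lower. The summed level of these 15 was 44.0 CPM in sham and 173, 121, 332, 316 and 186 CPM at the 5 times. They were chosen for levels above sham in these same libraries. That rise and the low sham median therefore follow at least in part from the choice. Of the 35 calls higher, 17 stood without each of the 12 libraries in turn. They belonged to Kcnk5, Kcnj15 and Kcnn4 at every time, Kcnd1 at day 7 and Kcnj13 at day 21. The other 18 ended without at least 1 library, as given gene by gene below.

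By role, genes called higher came from 7 of the 12 classes. They were 2 of 37 Kv pore subunits, 2 of 12 Kv auxiliary subunits, 1 of 11 activated potassium subunits, 3 of 10 inward rectifiers, 3 of 11 K2P channels, 1 of 8 sodium channel alpha subunits and 3 of 10 calcium channel alpha1 subunits. No HCN channel, sodium channel beta subunit, or calcium channel alpha2delta, beta or gamma subunit was called higher at any time. Called lower at 1 or more times were 29 Kv pore and 8 Kv auxiliary subunits, 8 activated potassium subunits, 7 inward rectifiers, 6 K2P channels, 3 HCN channels, 6 sodium channel alpha and 4 beta subunits, and 8 alpha1, 4 alpha2delta, 4 beta and 5 gamma subunits. Of all genes tested 30.9% were called higher and 26.3% lower at 1 or more times. The shares called higher of inward rectifiers, K2P channels and alpha1 subunits were near that of all genes.

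**Figure D3:**
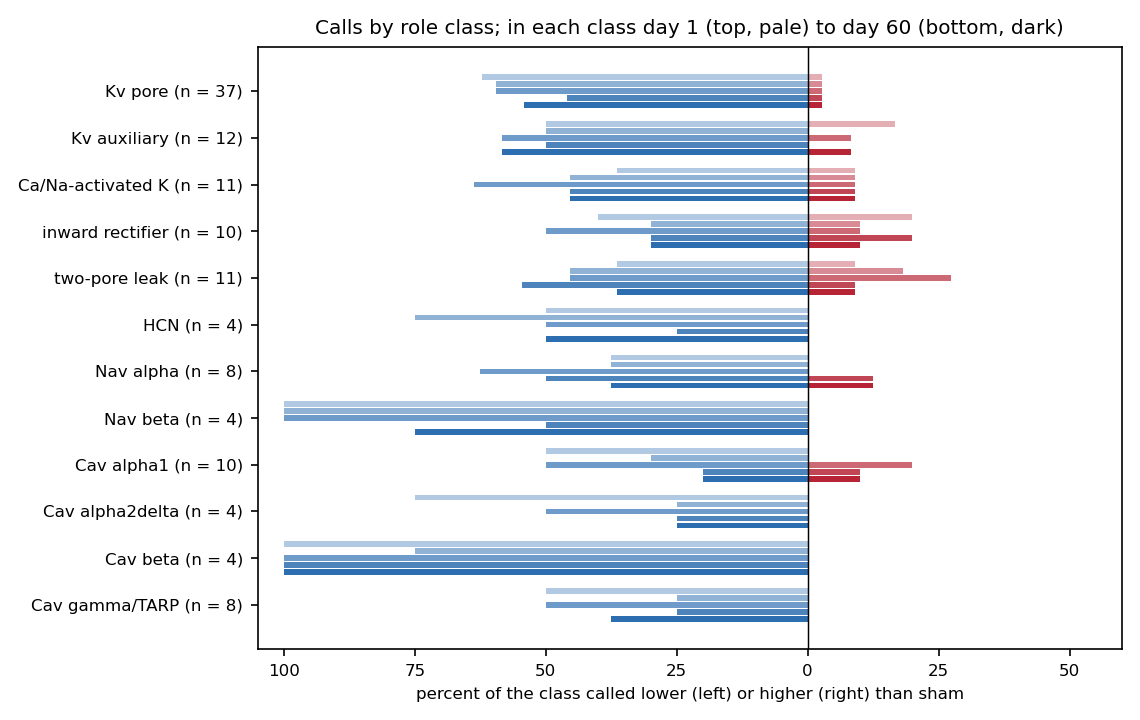
Percent of each role class called lower (blue, left) or higher (red, right) than sham, with 1 bar per time from day 1 (pale, top) to day 60 (dark, bottom) and the class size n. Bars to the right appear in 7 of 12 classes. All 4 calcium channel beta subunits are called lower at every time but day 3. There Cacnb2 does not pass in the main fit (adjusted p = 0.0589) and passes with the replicate block (0.0407).

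Among the channels that set a resting potassium conductance, Kcnk5 was higher at every time from day 1. It encodes an acid-sensitive K2P leak channel and lies on chromosome 14 at 20140057 to 20181809 (mm10, minus strand). Its level was 0.358 and 0.0385 CPM in the 2 sham libraries (6 and 4 counts), 21 and 11.5 CPM at day 1, and 11.5 and 8.84 CPM at day 3. It was 23.1 and 17.1 CPM at day 7, 23.6 and 17.6 CPM at day 21, and 23.3 and 31.3 CPM at day 60. All 10 libraries after stroke lay above both sham libraries, and the level at day 60 was close to that at day 7. Against sham these were log2 fold changes of 6.91 ± 0.89 (adjusted p = 0.00131), 6.24 ± 0.88 (0.00091), 7.22 ± 0.90 (0.000256), 7.26 ± 0.90 (0.000402) and 7.67 ± 0.91 (0.000338). These sizes rest on 10 counts in sham.

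Kcnk13 and Kcnk6, also K2P channels, were called higher for a shorter time. Kcnk13 measured 4.96 and 2.44 CPM in sham, 3.84 and 1.53 CPM at day 1, 29.8 and 14.5 CPM at day 3, 34.5 and 10.1 CPM at day 7, 7.28 and 4.81 CPM at day 21, and 5.96 and 1.48 CPM at day 60. It was highest at days 3 and 7, and in each of the 6 groups replicate 1 lay above replicate 2. The log2 fold changes were 2.59 ± 0.85 at day 3 (adjusted p = 0.0409) and 2.60 ± 0.85 at day 7 (adjusted p = 0.0316). The day 3 call ended with DESeq2 size factors, where its adjusted p was just over the threshold, and without sham replicates 1 (0.0899) and 2 (0.199), day 3 replicate 1 (0.173) and day 21 replicates 1 (0.0583) and 2 (0.0549). The day 7 call ended without sham replicates 1 (0.0696) and 2 (0.164) and day 7 replicate 1 (0.246). Kcnk6 measured 3.17 and 3.55 CPM in sham and 38.8 and 9.94 CPM at day 7, where its log2 fold change was 2.85 ± 0.81 (adjusted p = 0.0173). That call ended without sham replicates 1 (0.0931) and 2 (0.0775) and day 7 replicate 1 (0.190). Its levels at the other 4 times lay between 1.44 and 8.57 CPM.

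Kcnj15, an inward rectifier known mainly from kidney and gastric epithelium, reached the highest level of the genes called higher. It lies on chromosome 16 at 95257558 to 95300260 (plus strand). Sham libraries held 0.478 and 0 CPM (8 and 0 counts), day 1 libraries 9.06 and 3.99 CPM, and day 3 libraries 5.76 and 6.41 CPM. Levels were then 140 and 103 CPM at day 7, 163 and 120 CPM at day 21, and 39.2 and 42.0 CPM at day 60. The groups after stroke fell into 3 levels that did not overlap: days 1 and 3, day 60, and days 7 and 21. The called log2 fold changes were 5.56 ± 1.27 (adjusted p = 0.0103), 5.48 ± 1.27 (0.00955), 9.80 ± 1.42 (0.000526), 10.01 ± 1.43 (0.000832) and 8.21 ± 1.36 (0.00201), and they rest on 8 counts in sham. Fitted with sham alone, the calls at day 1 (0.0858) and day 3 (0.0851) ended. The step from day 3 to day 7 was also called, at 4.32 ± 1.05 (adjusted p = 0.0395).

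Kcnj2, a strong inward rectifier of muscle, microglia and vessels, was called higher at day 1 alone. It measured 1.85 and 1.71 CPM in sham, 30.2 and 10.3 CPM at day 1, 6.71 and 1.63 CPM at day 3, 9.20 and 3.75 CPM at day 7, 4.98 and 2.09 CPM at day 21, and 2.35 and 1.75 CPM at day 60. Both day 1 libraries lay above every other library, and replicate 1 was above replicate 2 in all 6 groups. The log2 fold change at day 1 was 3.50 ± 0.87 (adjusted p = 0.0141), and the call ended without sham replicates 1 (0.0793) and 2 (0.0821) and day 1 replicate 1 (0.101). With the replicate number as a block, day 7 was also called at a log2 fold change of 1.61 (adjusted p = 0.0233). The endothelium markers, summing to 1596 and 3080 CPM in sham, were at 8101 and 6184 CPM at day 1, with 6 of 12 called higher and none lower, and their part in the result was not tested.

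Kcnj13, an inward rectifier known from the choroid plexus and retinal pigment epithelium, was called higher at day 21 alone. It measured 5.67 and 9.19 CPM in sham, 1.33 and 3.92 CPM at day 1, 3.73 and 4.68 CPM at day 3, 6.25 and 11.5 CPM at day 7, 63.2 and 52.7 CPM at day 21, and 4.70 and 7.77 CPM at day 60. The 2 day 21 libraries stood apart from the other 10, which did not exceed 11.5 CPM. The log2 fold change was 2.96 ± 0.58 (adjusted p = 0.004). With the replicate block, day 1 was called lower at -1.54 (adjusted p = 0.0132). Transthyretin (Ttr), made by the choroid plexus and chosen after its values were seen, was also highest at day 21, with 1055 and 1454 CPM against 281 and 632 CPM in sham. Its part in the result was not tested. Exons of the protein-coding gene Gigyf2 lie opposite to those of Kcnj13, and the strand setting of the count is not given in the sources used here.

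Of the channels opened by calcium or sodium, Kcnn4 was higher at all 5 times. It lies on chromosome 7 at 24370263 to 24386690 (plus strand) and measured 0.299 and 0.212 CPM in sham, 1.56 and 2.16 CPM at day 1, and 15.4 and 12.6 CPM at day 3. It then measured 26.9 and 23.1 CPM at day 7, 1.90 and 4.17 CPM at day 21, and 7.05 and 5.85 CPM at day 60. Day 7 stood above every other group and both day 21 libraries lay below both of day 60, with the day 21 replicates farther apart in ratio than those of the other groups after stroke. The log2 fold changes were 2.93 ± 0.54 (adjusted p = 0.00433), 5.83 ± 0.59 (0.000219), 6.67 ± 0.61 (5.66e-05), 3.65 ± 0.54 (0.00104) and 4.71 ± 0.56 (0.000343). Fitted with sham alone, the day 1 call ended (0.0836). It was called higher at day 3 than at day 1 (2.90 ± 0.49, adjusted p = 0.0115) and lower at day 21 than at day 7 (-3.02 ± 0.49, adjusted p = 0.0397).

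The markers of immune cells and fibroblasts also changed after stroke. Microglia markers summed to 706 and 888 CPM in sham, 353 and 375 CPM at day 1, 4812 and 3507 CPM at day 3, 7082 and 4864 CPM at day 7, 2011 and 2256 CPM at day 21, and 951 and 836 CPM at day 60. Of these 12 genes 0, 6, 8, 3 and 1 were called higher at the 5 times and 3, 0, 0, 0 and 4 lower. Leukocyte markers were at 28.5 and 256 CPM in sham and reached 4529 and 5701 CPM at day 7. They were at 1229 and 2416 CPM at day 21 and 1416 and 1928 CPM at day 60. Of these 11 genes 4, 7, 6, 5 and 6 were called higher at the 5 times and 1 lower, at day 7. Lyz2 carried most of the day 7 sum (a mean of 13.3 CPM in sham and 4874 CPM at day 7). Ly6c2 carried most of the sham sum (a mean of 120 CPM with a standard deviation of 168 CPM). Of the 11 fibroblast markers 10 were called higher at each time. The fibroblast sum was 27531 and 53472 CPM at day 21 and 17759 and 29734 CPM at day 60. The part of these lists in the result for any channel gene was not tested.

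Kv pore subunits supplied Kcnd1 and Kcnq1. Kcnd1, on chromosome X, encodes an A-type channel subunit and measured 2.27 and 1.43 CPM in sham, 1.78 and 2.87 CPM at day 1, 4.05 and 4.23 CPM at day 3, 12.2 and 11.2 CPM at day 7, 5.88 and 6.41 CPM at day 21, and 4.87 and 6.23 CPM at day 60. Its day 7 libraries were the highest of all 12. Its log2 fold changes were 2.67 ± 0.51 at day 7 (adjusted p = 0.00209), 1.74 ± 0.49 at day 21 (0.0213) and 1.60 ± 0.49 at day 60 (0.0318). The day 21 call ended without sham replicates 1 (0.0505) and 2 (0.125) and day 21 replicates 1 (0.0975) and 2 (0.0953). The day 60 call ended in the fit with sham alone (0.103) and without either library of sham, day 7, day 21 or day 60 (0.0554 to 0.166).

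Kcnq1, which pairs with KCNE subunits in heart and epithelia, measured 2.21 and 4.99 CPM in sham, 51.0 and 31.4 CPM at day 1, 31.9 and 9.59 CPM at day 3, 3.90 and 3.88 CPM at day 7, 3.92 and 4.35 CPM at day 21, and 0.229 and 1.89 CPM at day 60. It was high at days 1 and 3 and within the range of sham at days 7 and 21. The log2 fold changes were 3.50 ± 0.87 at day 1 (adjusted p = 0.0139) and 2.50 ± 0.83 at day 3 (adjusted p = 0.0429). The day 1 call ended without sham replicate 1 (0.0952) and day 1 replicate 1 (0.0662). The day 3 call ended in the fit with sham alone (0.0535) and without either library of sham, day 1, day 7 or day 21, or day 3 replicate 1 (0.0525 to 0.282).

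The 2 Kv auxiliary subunits called higher were Kcne4 and Kcne3, small single-pass proteins that modify Kv channels such as Kcnq1. Kcne4 measured 4.18 and 2.03 CPM in sham, 115 and 14.8 CPM at day 1, 40.6 and 4.89 CPM at day 3, 40.1 and 23.3 CPM at day 7, 27.7 and 11.7 CPM at day 21, and 44.9 and 18.4 CPM at day 60. All 10 libraries after stroke lay above both sham libraries, yet replicate 1 exceeded replicate 2 in all 6 groups. Log2 fold changes against sham were 4.4 ± 1.2 at day 1 (adjusted p = 0.0204), 3.37 ± 1.14 at day 7 (0.0364) and 3.37 ± 1.14 at day 60 (0.0471), and days 3 (0.0743) and 21 (0.0889) did not pass. With the replicate block those 2 were called as well, at 2.37 (adjusted p = 0.00843) and 2.60 (adjusted p = 0.00474). The day 1 call ended without sham replicates 1 (0.0793) and 2 (0.122) and day 1 replicate 1 (0.185), where its log2 fold change was 2.22. The day 7 call ended without either library of sham or day 7 (0.0596 to 0.174). The day 60 call ended with DESeq2 size factors (0.0536) and without either library of sham, day 7, day 21 or day 60 (0.0567 to 0.208).

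Kcne3 was at 0.179 and 0.0577 CPM in sham and at 3.22 and 1.21 CPM at day 1, which gave 4.36 ± 1.43 (adjusted p = 0.0420). Day 3 libraries held 0.633 and 0.703 CPM, and later ones 0.202 CPM or less. The day 1 call ended in the fit with sham alone (0.0532) and without either library of sham, day 3, day 7 or day 21, or day 1 replicate 1 (0.0502 to 0.210).

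Among calcium channel pores, Cacna1d was called higher late, Cacna1c at day 7, and Cacna1g lower early and higher at day 7. Cacna1d, an L-type subunit, measured 3.34 and 3.60 CPM in sham, 2 and 1.4 CPM at day 1, 2.40 and 1.22 CPM at day 3, 4.50 and 5.18 CPM at day 7, 10.9 and 13.1 CPM at day 21, and 18.4 and 11.5 CPM at day 60. Days 21 and 60 lay above all other groups. The log2 fold changes were 1.79 ± 0.50 (adjusted p = 0.0204) and 2.10 ± 0.50 (adjusted p = 0.0116). The day 21 call ended without sham replicates 1 (0.104) and 2 (0.0826) and day 21 replicates 1 (0.0798) and 2 (0.104). The day 60 call ended without sham replicates 1 (0.0712) and 2 (0.0581) and day 60 replicate 1 (0.0692).

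Cacna1g, a T-type subunit that opens at low voltage, measured 8.30 and 12.6 CPM in sham, 1.11 and 0.929 CPM at day 1, 1.46 and 4.07 CPM at day 3, 28.0 and 45.3 CPM at day 7, 12.8 and 19.7 CPM at day 21, and 34.0 and 15.3 CPM at day 60. It was below sham at days 1 and 3 and above sham from day 7. Its log2 fold changes were -3.37 ± 0.62 at day 1 (adjusted p = 0.00457), -1.89 ± 0.58 at day 3 (0.0313) and 1.81 ± 0.57 at day 7 (0.0280). The step from day 3 to day 7 was 3.70 ± 0.62 (adjusted p = 0.0136). The day 3 call ended in the fit with sham alone (0.0932) and without sham replicates 1 (0.0544) and 2 (0.140) and day 3 replicate 1 (0.134). The day 7 call ended without sham replicates 1 (0.154) and 2 (0.0648) and day 7 replicate 2 (0.152). At day 7 pericyte and smooth muscle markers summed to 2069 and 2354 CPM against 506 and 688 CPM in sham, with 4 of 11 called higher and 4 lower. Pdgfrb carried most of that sum (a mean of 20.9 CPM in sham and 1820 CPM at day 7), while the contractile genes Acta2, Tagln, Myh11 and Cnn1 were the 4 called lower. Their part in the result was not tested.

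Cacna1c, the L-type subunit of heart and smooth muscle, measured 2.57 and 4.48 CPM in sham and 9.54 and 15.4 CPM at day 7, where its log2 fold change was 1.81 ± 0.66 (adjusted p = 0.0465). The day 7 libraries were the highest of the 12, and the other 8 after stroke held 2.05 to 8.36 CPM. This call ended with DESeq2 size factors (0.0614) and without either library of sham, day 3, day 7 or day 21 (0.0532 to 0.215).

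Scn7a was the only sodium channel gene called higher. It encodes an alpha-like subunit that senses extracellular sodium rather than voltage and is known from glia and circumventricular organs. It measured 0.657 and 1.19 CPM in sham, 0 and 0.0279 CPM at day 1, 0 and 0.183 CPM at day 3, 2.08 and 0.400 CPM at day 7, 13.1 and 11.8 CPM at day 21, and 11.5 and 15.7 CPM at day 60. It was lowest at days 1 and 3 and highest at days 21 and 60. Day 1 libraries held 3 counts in all against 135 in sham, a ratio of 0.0213 with an exact 95% interval from 0.00435 to 0.0637 that covers counting error only. That call (adjusted p = 0.0111) ended in the fit with sham alone (0.0541) and without day 1 replicate 1 (log2 fold change -5.05). At day 3 the gene did not pass in the main fit (0.0501) and passed with the replicate block (0.0351). The log2 fold changes were 3.72 ± 0.97 at day 21 (adjusted p = 0.0156) and 3.85 ± 0.98 at day 60 (adjusted p = 0.0151). The day 21 call ended without either library of sham or day 21 (0.0541 to 0.1), and the day 60 call without sham replicates 1 (0.0964) and 2 (0.0597) and day 60 replicate 2 (0.0572).

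**Figure D4:**
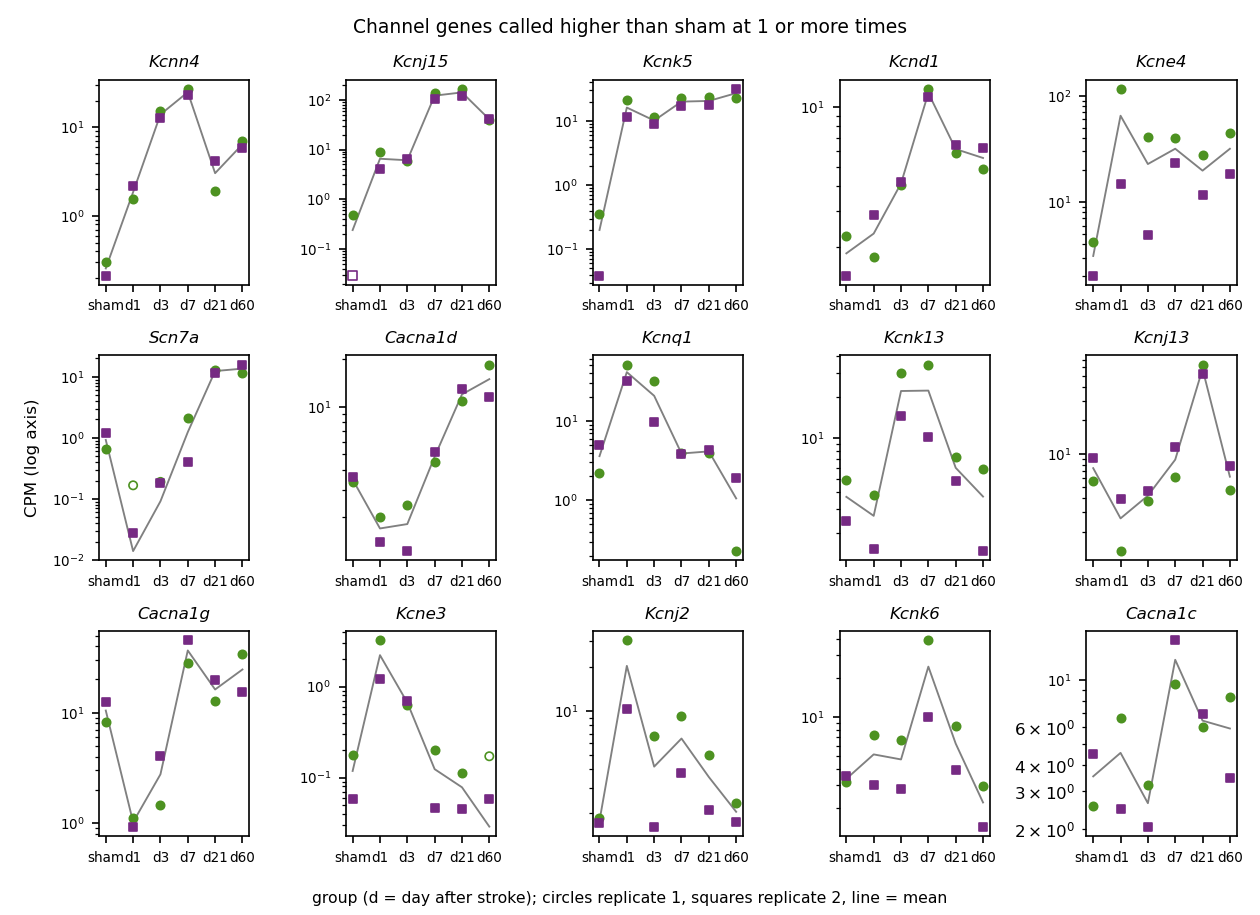
CPM on log axes in each library for the 15 channel genes called higher than sham at 1 or more times, by group, with circles for replicate 1, squares for replicate 2, a line through the means, and open symbols at the level of 3 counts for libraries at 0. Kcnn4, Kcnj15 and Kcnk5 are above sham at every time, Kcnj13 only at day 21, and Cacna1d and Scn7a mainly at days 21 and 60.

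The genes called lower at all 5 times came from 11 of the 12 classes. These 36 were 14 Kv pore subunits, 5 Kv auxiliary subunits, 3 calcium channel beta subunits, 3 K2P channels, 2 sodium channel alpha and 2 beta subunits, 2 gamma subunits, 2 activated potassium subunits, and 1 each of the HCN channels, alpha2delta subunits and inward rectifiers. Among the Kv pore subunits were Kcna1, Kcna2 and Kcna6 of axons, Kcnc1, Kcnc2 and Kcnc4 of a family known from fast-spiking cells, Kcnd2 and Kcnd3 of the A-type current, Kcnq5 of the M-current, Kcnh3, and the silent subunits Kcnf1 and Kcnv1. Neuron markers were lower over the same times, with 13 of 15 called lower at day 1 and 14 at each later time, and none higher. The summed level of the neuron markers was lowest at day 7. That of all 123 channel genes was lowest at day 3 (831 CPM, against 938 CPM at day 7). Without the 15 called higher at any time, the other 108 summed lowest at day 7 (606 CPM, against 710 CPM at day 3). The split was made from these same libraries, and the markers' part in the fall was not tested. Oligodendrocyte markers summed to 11183 and 10494 CPM in sham and 699 to 2434 CPM afterwards.

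Among sodium channel subunits, Scn4b, the beta subunit of resurgent current, measured 34.7 and 25.9 CPM in sham, 1.39 and 0.882 CPM at day 1, 0.570 and 0.585 CPM at day 3, 2.89 and 1.45 CPM at day 7, 11.5 and 6.39 CPM at day 21, and 5.10 and 7.16 CPM at day 60. It was lowest at day 3, at a log2 fold change of -5.71 ± 0.62 (adjusted p = 0.000307). Days 21 and 60 lay above days 1, 3 and 7 but below both sham libraries, at -1.77 ± 0.51 (adjusted p = 0.0236) and -2.30 ± 0.52 (adjusted p = 0.00893). Scn8a, the main alpha subunit of nodes and axon initial segments, was at 48.6 and 45.5 CPM in sham and 2.96 and 2.13 CPM at day 7 (-4.22 ± 0.60, adjusted p = 0.000485). Scn2a1, the alpha subunit of immature and unmyelinated axons, was at 33.3 and 43.0 CPM in sham and 3.29 and 1.93 CPM at day 7 (-3.89 ± 0.64, adjusted p = 0.000995). At day 60 they were at 12.9 and 6.07 CPM and at 11.7 and 5.34 CPM, still called lower (adjusted p = 0.0113 and 0.0201).

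Of the Kv pores named by rule, Kcnv1, a silent subunit, fell from 28.8 and 21 CPM to 0.470 and 0.446 CPM at day 7 (-5.76 ± 0.67, adjusted p = 0.000186). Kcnf1, also silent, fell from 65.2 and 43.9 CPM to 2.02 and 0.400 CPM (-5.60 ± 0.78, adjusted p = 0.000446). Kcnc4 was at 47.8 and 42.5 CPM in sham and 1.75 and 0.837 CPM at day 7 (-5.17 ± 0.81, adjusted p = 0.000768). By group mean all 3 were lowest at day 7. No library after stroke reached a sham library, which the rule that named these genes requires. Kcnq5 was at 20.1 and 26.2 CPM in sham and 1.54 and 0.577 CPM at day 7 (-4.50 ± 0.74, adjusted p = 0.000992), and at 0.556 and 1.87 CPM as early as day 1.

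Auxiliary Kv subunits were called lower as well. Kcnab2, the cytosolic beta subunit of axonal Kv channels, was at 448 and 554 CPM in sham, 12 and 56.5 CPM at day 1, 45.9 and 23.0 CPM at day 7 (-3.86 ± 0.67, adjusted p = 0.00131) and 119 and 110 CPM at day 21. Kcnab1 was at 35.1 and 43.1 CPM in sham and was lowest at days 1 and 3, with 2.31 to 4.43 CPM (-3.55 ± 0.49 at day 3, adjusted p = 0.00088). Kcnip2, a calcium-binding partner of A-type channels, was at 150 and 164 CPM in sham and 6.31 and 3.43 CPM at day 7 (-5.02 ± 0.74, adjusted p = 0.000559). These subunits differed in when they were lowest. Kcnip4 was at 25.3 and 26.7 CPM in sham and at 1.15 to 3.84 CPM from day 7 on, and its day 7 change was -4.37 ± 0.67 (adjusted p = 0.000701).

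Cacnb4, a calcium channel beta subunit that brings alpha1 subunits to the membrane, was at 136 and 171 CPM in sham, 10.6 and 25.3 CPM at day 1, 9.37 and 21.8 CPM at day 3, 2.96 and 3.23 CPM at day 7, 16.7 and 15.2 CPM at day 21, and 27.1 and 18.6 CPM at day 60. Day 7 was the lowest group, at -5.63 ± 0.59 against sham (adjusted p = 0.000107) and -2.34 ± 0.51 against day 3 (adjusted p = 0.0290). Cacng2, the TARP stargazin that carries AMPA receptors to synapses, was at 43.2 and 26.8 CPM in sham and 1.01 and 0.391 CPM at day 7 (-5.74 ± 0.76, adjusted p = 0.000342). Kcnj9, a neuronal inward rectifier opened by G proteins, was at 43.3 and 32.4 CPM in sham and 1.75 and 0.856 CPM at day 7 (-4.91 ± 0.66, adjusted p = 0.000366), and at 14.7 and 5.06 CPM at day 60, where the call ended in the fit with sham alone (0.0602). Kcnj9 thus moved opposite to the inward rectifier Kcnj15 at day 7, and the difference between them was not tested.

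Over these 14 genes and 5 times, 19 of the 70 calls ended without at least 1 library, and none of those at day 7 did. Without sham replicate 1 there were 11 (adjusted p 0.0539 to 0.13), and without sham replicate 2 there were 11 (0.0506 to 0.116). Without day 1 replicate 1 there were 2 (0.0564 to 0.140) and without day 3 replicate 1 there was 1 (0.0630). The rest ended without day 21 replicates 1 (4, at 0.0553 to 0.110) and 2 (7, at 0.0548 to 0.169) and day 60 replicates 1 (3, at 0.0562 to 0.0728) and 2 (8, at 0.0612 to 0.136).

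**Figure D5:**
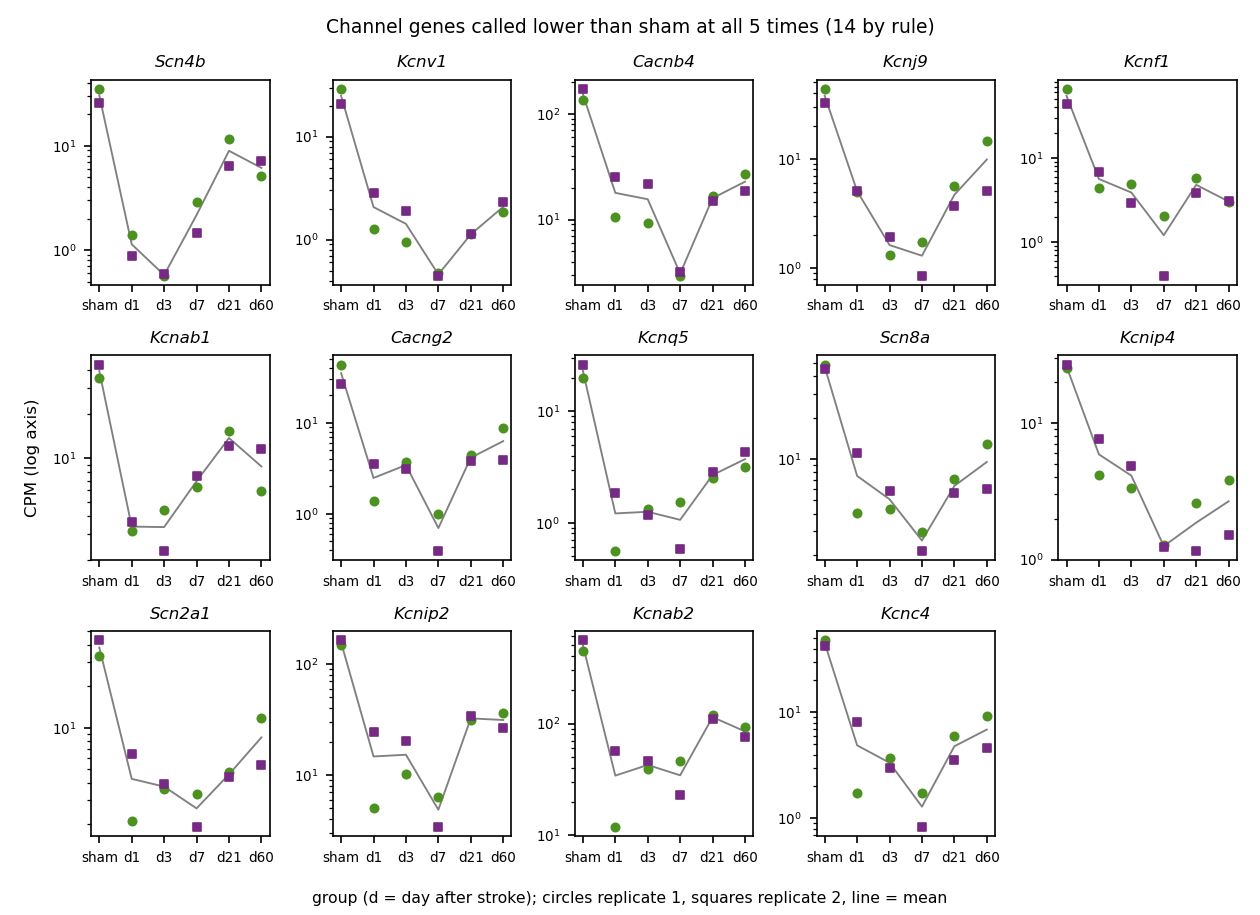
CPM on log axes in each library for 14 channel genes called lower than sham at all 5 times, by group, with circles for replicate 1, squares for replicate 2 and a line through the means. Both sham libraries lie above all 10 others in each panel, which the rule that chose these genes requires. Kcnv1 and Cacnb4 are lowest at day 7, Scn4b at day 3.

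Per kilobase of exon, the most abundant members of the classes over the 12 libraries showed how much of the channel signal lay in sham. Cacnb3, a calcium channel beta subunit, was at 179 and Kcnh3 at 116 CPM per kb in sham, and at 18.5 to 32.7 and 4.15 to 16.4 CPM per kb afterwards. Both were called lower at all 5 times, with adjusted p from 0.00154 to 0.0295. Fitted with sham alone, the day 1 call of Cacnb3 ended (0.0565). Kcnmb4, the neuronal beta subunit of BK channels, and Cacng3 were also called lower at all 5 times, with 44.3 and 35.4 CPM per kb in sham and 2.22 and 0.694 CPM per kb at day 7.

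Other abundant members were not called at every time. Kcnip3 was at 42.7 CPM per kb in sham and 12.8 to 29.6 CPM per kb later, and was called lower only at day 7 (-1.74 ± 0.55, adjusted p = 0.0275). Kcnk1, a K2P channel of astrocytes and neurons, was at 31.3 CPM per kb in sham and 21 CPM per kb at day 1 (-0.57 ± 0.42, adjusted p = 0.329). It was called lower at the other times and most at day 7, with 1.69 CPM per kb (-4.22 ± 0.48, adjusted p = 0.00017). Hcn2, a pacemaker channel, was at 57.7 CPM per kb in sham and 4.08 at day 7 (-3.83 ± 0.82, adjusted p = 0.00405), and its day 21 libraries disagreed at 43.0 and 147 CPM (-0.95 ± 0.74, adjusted p = 0.347). Cacna2d1 was called lower at day 1 alone (-1.54 ± 0.48, adjusted p = 0.0343) and was at 1.34 CPM per kb in sham and 1.83 at day 7. That call ended in the fit with sham alone (0.0942) and without either library of sham or day 7, day 1 replicate 1 or day 21 replicate 2 (0.0514 to 0.176). Cacna1a, the P/Q-type pore, was at 3.68 CPM per kb in sham and was called lower at days 1 (-2.40 ± 0.60, adjusted p = 0.0142) and 7 (-1.74 ± 0.59, 0.0347), and with the replicate block at days 3 (0.0183) and 21 (0.0359) too. Its day 1 call ended in the fit with sham alone (0.0613). Averaged over the 12 libraries, Scn8a led the sodium channel alpha subunits and Kcnj13, through its day 21 level, the inward rectifiers. In sham they were at 2.98 and 5.85 CPM per kb, below Scn2a1 at 2.99 and Kcnj9 at 8.82 CPM per kb.

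For 10 genes that were the most abundant of their class and not among those above, 27 of 37 calls ended without at least 1 library. Without sham replicates 1 and 2 there were 15 (adjusted p 0.0573 to 0.168) and 13 (0.0510 to 0.199). Without day 1 replicate 1 and day 3 replicate 1 there were 5 (0.0580 to 0.176) and 6 (0.0518 to 0.0875). Without day 7 replicates 1 and 2 there were 6 (0.0517 to 0.146) and 7 (0.0507 to 0.126), without day 21 replicates 1 and 2 there were 7 (0.0507 to 0.133) and 9 (0.0514 to 0.115), and without day 60 replicates 1 and 2 there were 6 (0.0964 to 0.116) and 6 (0.0834 to 0.209). In none of them did the direction turn.

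The 18 channel genes called at no time had a median sham level of 1.77 CPM. Among them were the Kv pores Kcna5, Kcna7, Kcng3, Kcnh4 and Kcns3, the K2P channels Kcnk7 and Kcnk10, and Kcne1l, Kcnrg, Kcnt2, Kcnu1, Hcn3, Scn4a, Cacng1, Cacng5 and Cacng8. Scn4a, the sodium channel of skeletal muscle, had 0 counts in both sham libraries and at most 0.834 CPM elsewhere. Kcnt2, a sodium-activated channel singled out after its values were seen, measured 0.956 and 4.16 CPM in sham, 11.8 and 14.9 CPM at day 7, 12.2 and 15.6 CPM at day 21, and 3.44 and 13.9 CPM at day 60. It lay just outside the threshold at days 7 (adjusted p = 0.0533) and 21 (0.0594). The replicate block called it at days 7 (0.00228), 21 (0.00278) and 60 (0.0227), and DESeq2 called it at days 7 (0.0178) and 21 (0.0164). With the block Kcns3 was also called higher at day 7 (2.63, adjusted p = 0.0251).

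Compared with each other and without sham, the 5 times after stroke differed for 20 of 123 channel genes in the main fit. That share was like the 16.7% of all genes tested, and for other settings no share of all genes is given. The count was 37 with the replicate block, 13 without day 7 replicate 1 and 12 without day 7 replicate 2. Between neighbouring times 1 channel gene was called from day 1 to 3 (3.57% of all genes), 7 from day 3 to 7 (6.29%), 1 from day 7 to 21 (0.441%) and 0 from day 21 to 60 (0%). At the last step 7 had an unadjusted p under 0.05. DESeq2 called 4, 32, 18 and 3 at the 4 steps, for which no share of all genes is given. From day 3 to day 7 Kcnj15 and Cacna1g rose, and Cacnb4, Kcnk1 (-2.41 ± 0.45), the small-conductance channel Kcnn2 (-2.37 ± 0.58), Kcnip1 (-3.66 ± 0.61) and Kcnh7 (-4.61 ± 1.09) fell. The sum of 9 calls was 37 with the replicate block. It was 1 without either day 7 library, 4 without either day 21 library, 5 without day 3 replicate 1, and 16 and 19 without day 1 replicates 1 and 2.

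Genes that work with these channels were counted from lists. Of 12 genes that cluster channels along axons, such as ankyrins, contactins and Lgi1, 0 were called higher and 6, 9, 11, 7 and 8 lower at the 5 times, with median log2 fold changes of -2.23, -2.56, -3.53, -2.21 and -2.37. Of 12 measured intracellular or single-pass partners, such as Dpp6, Dpp10 and the calmodulins, 0 were higher and 9, 10, 9, 9 and 9 lower, with medians of -2.62, -2.58, -4.25, -3.02 and -2.45. Of 16 other cation channels of the superfamily measured, 3, 5, 8, 7 and 6 were called higher and 2, 1, 3, 2 and 2 lower, with medians of -0.26, 0.64, 1.28, 0.64 and -0.05. Of all genes 16.7%, 18%, 23.2%, 17.8% and 16.8% were called higher and 13.9%, 14.2%, 19.8%, 15.4% and 14.8% lower. The difference between the lists was not tested. Hvcn1, the proton channel of phagocytes, had a mean of 4.05 CPM in sham and 106 CPM at day 7 (4.70, adjusted p = 9.38e-05). Tpcn2, a lysosomal channel, was called higher at all 5 times, from 1.60 CPM to 24.1 CPM at day 7 (3.87, adjusted p = 0.00042). Unc80, a subunit of the sodium leak channel complex of neurons, was called lower at all 5 times, from 112 to 2.93 CPM at day 7 (-5.27, adjusted p = 0.00041).

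The 3 inward rectifiers set aside by the rule differed among themselves: Kcnj8 was called higher at days 1 (4.31 ± 0.86, adjusted p = 0.00612) and 3 (2.47 ± 0.80, 0.0385), Kcnj10 lower at day 7 (-3.93 ± 1.11, 0.0165) and Kcnj16 lower at days 7, 21 and 60 (-4.26, -2.50 and -3.24).

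For the 3 genes called higher at all 5 times and for Kcnd1, which like Kcne4 was called higher at 3 and had the smaller p in an edgeR F test of the 5 contrasts with sham (0.00236 against 0.0704), the genes of the whole table with the most similar group means were sought by Pearson's r over the 6 group means of log2 CPM, as a description with no test. Kcnn4 was followed most closely by Cd36 (r = 0.9996), whose means were 1.59 CPM in sham and 122 CPM at day 7, and then by Cthrc1, Copz1, Gpx7 and Tmem101 (r from 0.991 to 0.994). Nearest to Kcnj15 were Rreb1, Ctbp2, Stat6, Syne3 and Ddit4 (0.995 to 0.996). Nearest to Kcnk5 were Sptlc1, Herc4, Angptl4, Nradd and Klrb1c (0.995 to 0.998), and nearest to Kcnd1 were Fam109b, C1qtnf2, Flrt2, Six5 and Sulf2 (0.995 to 0.998). The points share libraries and depth.

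In the genome some of the genes called higher neighbour others of the set. The nearest channel gene to Scn7a was Scn9a, 38.5 kb away, which was at 0 counts in both day 7 libraries and at least 37.2-fold lower there than in sham (adjusted p = 0.00547). Cacna1c lies 40.1 kb from Cacna2d4, Kcnj15 260 kb from Kcnj6, and Kcnj2 38.2 kb from Kcnj16, one of the genes set aside. Kcnj2 was called higher at day 1 where Kcnj16 did not pass (-0.46 ± 0.59, adjusted p = 0.589). Exons of 7 channel genes overlap exons of protein-coding genes on the opposite strand (Cacna1d, Cacna1h, Hcn3, Kcnh3, Kcnh7, Kcnip4 and Kcnj13). Those of Kcnk4 overlap a protein-coding gene on the same strand, so reads at these 8 genes may be shared between genes.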

How the data were processed

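RNA from 12 libraries of sorted cortical astrocytes (6 groups of 2, named by title) was analysed from raw counts per gene symbol deposited by the authors. Per the submitters' processing notes, Bowtie2 2.3.4.2, HTSeq 0.6.1 and mm10 were used. The annotation, strand setting and handling of multi-mapped reads are not given in the sources used here. The series table equalled the sample files in 189288 of 189288 values. In R 4.3.3, edgeR 4.0.16 fitted 1 quasi-likelihood model over all 12 libraries with TMM scaling and filterByExpr (minimum count 10), which kept 15635 genes (6 residual and 4.15 prior degrees of freedom). Benjamini-Hochberg adjustment ran over all genes of a comparison, and every adjusted p comes from this test unless DESeq2 1.42.0 is named. The SE is the log2 fold change divided by the square root of F. The method was tested on simulated counts.

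Alternatives were DESeq2 size factors, the DESeq2 test, no filter, each library left out, a replicate block, and 2 groups fitted alone. Deviations of replicates 2 and 1 correlated at 0.319 to 0.713 in 15 of 15 pairs of groups (threshold 0.1), so same-numbered libraries varied together. The main fit holds group terms only and ignores this pairing. An adjusted p takes it into account only where the replicate block is named. Nothing in the labels says what the number stands for. When 1 library of a group is left out, the other is assumed to vary like the other groups.

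Genes and lists were chosen with earlier results of these data known. Named were every gene called higher, with library values where called at 2 or more times or at a log2 fold change of 3 or more. Also named were the 14 called lower at most times with the smallest p and at least 5 CPM in sham. For these 14, both sham libraries had to lie above both libraries of each group called lower. The most abundant gene per kb of each class was named too. Some of the genes these rules take are not reported here. Library values are also given for the other genes called higher. Intervals and floors (3 counts per library) cover counting error only. Exon lengths, positions and overlaps are from GENCODE M21, and promoters from RefSeq (GRCm38.p6).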

Additional observations from a re-analysis of the deposited data

Results flagged for a closer look

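Effects of stroke against sham differed between the 5 times for 20 channel genes, by an edgeR F test of 4 contrasts among the times that leaves sham out. Over all genes tested 16.7% differed in this fit, so there the share of channel genes was like that of all genes. For other settings no share of all genes is given. With the replicate block the count was 37, and without day 7 replicates 1 and 2 it was 13 and 12. Genes high at day 21 or later were Kcnj13 (adjusted p = 0.00189, means of 58.0 CPM at day 21 and 6.23 CPM at day 60), Scn7a (0.00234), Cacna1d (0.0047) and Kcne2 (0.00692). Kcne2 measured 18.6 and 8.24 CPM at day 21 and 0 in both libraries at day 60. Genes with a peak at day 7 were Kcnn4 (0.00276), Cacna1g (0.00242) and Kcnd1 (0.0492), and Kcnj15 (0.0222) was high at days 7 and 21.

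Genes highest at day 1 among the times were Kcnq1 (0.0106), Kcne3 (0.0399), Kcnk1 (0.00559), Kcnn2 (0.0182) and Kcnmb1 (0.0292). Kcnmb1, the smooth muscle beta subunit of BK channels, measured 8.67 and 5.06 CPM at day 1 and 0.0573 and 0.413 CPM at day 60. Genes lowest at day 3 were Scn4b (0.00349) and Kcnh1 (0.00838), which measured 0.759 and 2.94 CPM at day 3 and 20.6 and 14.9 CPM at day 21.

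Lowest at day 7 were Kcnj9 (0.0238), Cacnb4 (0.0288) and Kcnip1 (0.013), the last with 0.739 and 0.614 CPM against 19.9 and 26.8 CPM in sham. Kcnh2, a Kv pore of heart, was lowest at day 60, with 0.286 and 0.464 CPM against 10.0 and 5.65 CPM at day 7 (0.00809). Kcnab1 was lowest at days 1 and 3 (0.033). The causes of these differences between times were not tested.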

How the results depend on the processing

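Under DESeq2 size factors, the DESeq2 test, no filter, the replicate block and the fit of 2 groups alone, 710 of 725 refitted calls of the 39 named genes kept their side of the threshold. Of the 15 that ended, 3 did so with DESeq2 size factors and 12 with 2 groups alone. None reversed. DESeq2 size factors moved the median log2 fold change of all genes at day 7 from 0.13 to -0.01, the fold changes of the channel genes moved with it, and 14 genes were then called higher at any time in place of 15. Fitted alone with sham, 4 genes were higher at day 1 and 3 at day 3. Of all genes tested 1510 of 14982 and 1958 of 15079 were higher in those fits, against 2606 and 2815 of 15635 in the main fit. With the replicate block 37 genes differed among the times and neighbouring times gave 37 calls, and with DESeq2 these were 38 and 57. No share of all genes is given for these counts. The block added 40 calls against sham, lost 2 (Cacna1s at day 60, adjusted p = 0.0533, and Cacng7 at day 7, 0.0618) and changed no other call against sham. The causes were not tested.

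Leaving out 1 library at a time, genes higher numbered 3 to 7, 3 to 7, 4 to 10, 4 to 8 and 3 to 7 at days 1, 3, 7, 21 and 60, genes lower 21 to 67, 29 to 68, 47 to 76, 11 to 60 and 19 to 64, genes differing among times 12 to 27 and calls between neighbouring times 1 to 19. Of 1740 such refits of named calls 217 ended a call and none reversed it, and genes called higher at any time numbered 5 to 16. Where the counts against sham were lowest, fewer of all genes tested were also called in that direction than in the main fit. Kcnj15 and Kcnk5 rest on 8 and 10 counts in the 2 sham libraries together, which limits the precision of their fold changes.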

Other observations

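Kcnj13 and Kcne2, both known from the choroid plexus, were highest at day 21. Other genes known from that epithelium, chosen after their values were seen, were highest there too by group mean. For Aqp1 the groups overlapped, with 26.8 and 18 CPM at day 21 and 24.7 and 13.6 CPM at day 7. Ttr measured 1055 and 1454 CPM at day 21, against 281 and 632 CPM in sham and 2.12 to 205 CPM at the other times. Folr1 measured 32.9 and 37.0 CPM, Clic6 37.7 and 26.9 CPM, Otx2 6.05 and 5.51 CPM, Prlr 27.6 and 24.0 CPM and Kl 79.4 and 50.6 CPM at day 21. In the other 10 libraries they did not exceed 8.03, 18.1, 1.57, 7.16 and 17.1 CPM. These levels are not part of any comparison above, and their part in the day 21 values of Kcnj13 and Kcne2 was not tested. Kcne2 at day 21 did not pass in the main edgeR fit (adjusted p = 0.0951) or with the replicate block (0.0730). It passed in the edgeR fit with sham alone (0.0168) and with DESeq2 (0.0334).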
